A study of Rattus norvegicus with 12 samples.

Results

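The constitutive proteasome genes were followed in the rostral ventrolateral medulla (RVLM), a part of the brainstem that sets sympathetic outflow and with it blood pressure, in 3-, 12- and 24-month-old males of the inbred rat strain F344. Members were the probes whose gene name on the array begins with Psma1 to Psma8, Psmc1 to Psmc6, Psmd and a digit, Psmg, Psmf1, Psme3 or Psme4, or is Psmb1 to Psmb7. The rule used names alone, but it was chosen with earlier results of these data known. Of 41012 non-control probes 45 matched, under 37 of the 35561 names on the array. These were 14 genes of the core particle, 16 genes of the regulatory particle, the assembly chaperones Psmd5, Psmd9 and Psmd10, the alternative activators Psme3 and Psme4, and the names Psma3l and Psmc3ip. Psma3l is a synonym of Psma3 in the current RefSeq annotation, and Psmc3ip is a cofactor of meiotic recombination that shares only the prefix. No probe carried a name beginning with Psmg, or the names Psma8, Psmd14 or Psmf1. The 3 groups were young (3 months), middle-aged (12 months) and aged (24 months) rats without any further treatment or genotype, 3 biological replicates each, and tissue was taken as micropunches from frozen brains. A punch holds all cell types of the area, so fewer cells of a type and less RNA per cell cannot be told apart.

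The proteasome is the protease that breaks down proteins marked with ubiquitin. Its core is a barrel of stacked rings, in which alpha subunits form the outer gates and beta subunits the inner chamber, and Psmb5, Psmb6 and Psmb7 carry the active sites. The regulatory particle caps the barrel: its base holds the ATPases Psmc1 to Psmc6, which unfold the substrate, and its lid holds the subunits around the deubiquitinase that removes the ubiquitin chain. Cells stimulated by interferon make the immunoproteasome, in which Psmb8, Psmb9 and Psmb10 take the places of Psmb5, Psmb6 and Psmb7, so that the RNA of both kinds can be set side by side in the same animals.

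The 60-base array probes of these 6 catalytic subunits are shown because the comparison of constitutive with immunoproteasome RNA rests on them. Both probes of Psmd2 are shown because their differences of aged from young animals had unlike signs. All are printed 5′ to 3′ from the array files, with no part in capitals.
Psmb5: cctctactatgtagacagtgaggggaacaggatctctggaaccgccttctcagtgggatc
Psmb6: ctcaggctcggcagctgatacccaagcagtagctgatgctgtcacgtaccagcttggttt
Psmb7: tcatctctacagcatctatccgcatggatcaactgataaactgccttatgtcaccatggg
Psmb8: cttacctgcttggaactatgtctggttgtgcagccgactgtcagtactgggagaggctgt
Psmb9: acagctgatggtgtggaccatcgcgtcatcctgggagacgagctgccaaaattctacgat
Psmb10: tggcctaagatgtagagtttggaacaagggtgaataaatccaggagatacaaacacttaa
Psmd2, A_43_P15715: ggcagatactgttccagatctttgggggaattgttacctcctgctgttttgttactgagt
Psmd2, A_44_P234636: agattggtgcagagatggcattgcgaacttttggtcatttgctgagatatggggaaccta
On rat build rn3 the Psmb5 probe lies at chr15:32705834-32705893 on the minus strand and the Psmb6 probe at chr10:57384991-57385050 on the plus strand. The Psmb7 probe spans chr3:18309603-18329477 on the minus strand, a stretch longer than the probe, as did 18 of the 45 member probes. The Psmb8 and Psmb9 probes lie close together at chr20:4788207-4788266 (minus strand) and chr20:4806568-4806627 (plus strand), and the Psmb10 probe at chr19:35782592-35782651 (minus strand). The longest run of bases shared by the probes of a pair was 7 for Psmb8 and Psmb5, 8 for Psmb9 and Psmb6, and 5 for Psmb10 and Psmb7.

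All 45 member probes were well above background on all 12 arrays, and none had a missing value. Over all spots the share well above background was 73.5% to 77.1%, with 0 saturated. Levels are given in log2 units relative to the 75th percentile of the array, and are compared between animals for 1 probe, not between probes. RNA of each group's replicate 3 went onto 2 arrays, and these differed by a median of 0.035 to 0.037 over the member probes, whereas animals of the same age differed by 0.057 to 0.145. The RVLM markers of catecholamine neurons Th, Dbh, Ddc, Slc18a2 and Phox2a were well above background on 12 arrays. Slides held unequal numbers of each age, and only slide 3 held all 3 ages.

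No constitutive proteasome gene passed the test between aged and young animals, and the differences were bounded to a narrow range. Of the 45 member probes, 0 passed limma's test (adjusted p under 0.05 over all 29805 probes tested), where 1.85% of all probes passed (1.39% higher and 0.463% lower in aged animals), a share that amounts to less than 1 probe of 45. At an unadjusted p under 0.05 the count was 1 member, against 15.1% of all probes. The 95% interval lay within 1.5-fold either way (0.58 log2 units) for 45 of 45 members, against 75.8% of all probes. The widest bound was 0.47 log2 units, from the second Psme4 probe, and the SE of the difference was 0.06 to 0.15. The median spread (SD) between animals of a group was 0.10 for the members and 0.141 for all probes. All probes include dimmer ones (lowest level -8.24, against -2.02 among the members), and the shares were not compared at equal signal. The median difference was 0.04 log2 units over the members and 0.02 over all probes, and 34 of 45 members were above 0, against 55.1% of all probes. The sign of the member median depended on the scaling: it was 0 when arrays were scaled to their median or quantile-normalized, -0.02 from the values of the series matrix and 0.07 with normexp background correction. It was 0.00 without young replicate 1, 0.01 without aged replicate 3 and 0.08 within slide 3. The ranges of both groups did not overlap for 5 members that were higher in aged animals and 3 that were lower, against 13.2% and 9.72% of all probes.

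**Figure D1:**
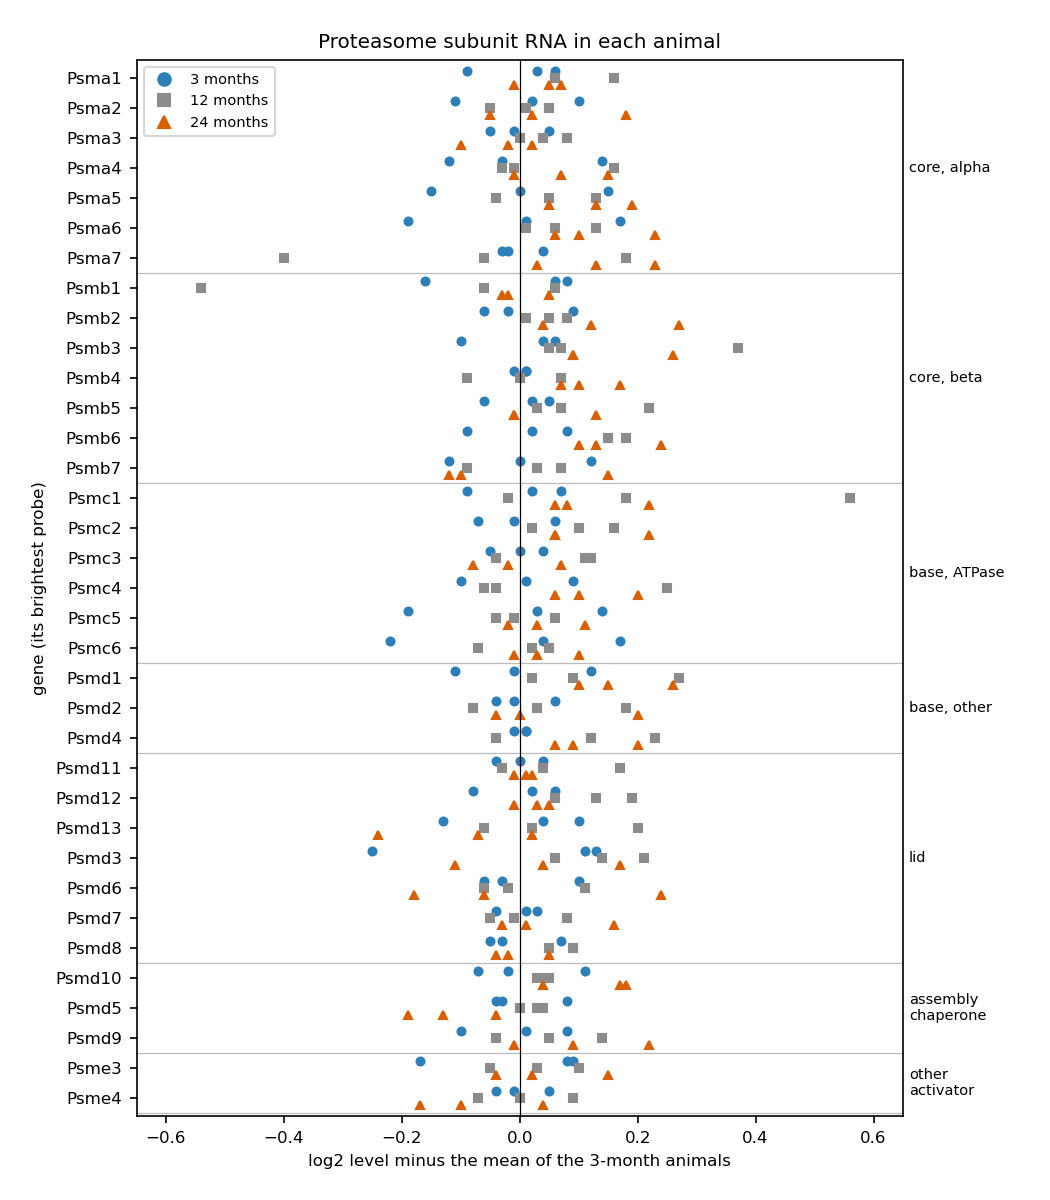
Level of each proteasome gene in each animal: log2 level of the gene's brightest probe minus the mean of the 3-month animals (horizontal axis), 1 point per animal, genes grouped by their place in the complex. Most points lie within 0.25 of 0 at every age; the farthest, Psmb1 on the left and Psmc1 on the right, belong to middle-aged replicate 2.

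In the core particle the median difference of aged from young animals was 0.09 log2 units over 14 genes, 12 of them above 0, and 0 passed. Psmb6, the active subunit with caspase-like activity, was the core gene nearest to the threshold. Its level was 3.47, 3.44 and 3.58 in aged animals, against 3.25, 3.36 and 3.42 in young animals. All aged animals thus lay above all young ones, by a mean of 0.15 ± 0.07 (SE, n = 3 each; adjusted p = 0.37, limma). Psmb5, the active subunit with chymotrypsin-like activity, had 5.08, 5.08 and 5.22 in aged animals, against 5.03, 5.11 and 5.14 in young animals. These values overlapped, with a difference of 0.04 ± 0.08. Psmb7, the active subunit with trypsin-like activity, had 3.46, 3.48 and 3.73 in aged animals, against 3.58, 3.70 and 3.46 in young animals, and again the groups overlapped (-0.02 ± 0.10). The constitutive catalytic subunits thus differed by at most 0.15 on average, and 2 of the 3 by less than the SE.

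Among the beta subunits without an active site, Psmb3 had 5.12, 5.12 and 5.29 in aged animals, against 4.93, 5.09 and 5.07 in young animals. The groups did not overlap, but the difference of 0.15 ± 0.11 did not pass (adjusted p = 0.54, limma). RefSeq lists 10 further loci named after Psmb3, 7 of them pseudogenes, and the probe was not tested for matches to them. Further loci are also listed for other members, among them 3 for Psmb6, 2 for Psmb7 and 5 for Psma6. Those probes were not tested for such matches either. Psmb2 differed by 0.14 ± 0.08 and Psmb4 by 0.11 ± 0.07, and the Psmb4 level of 5.24 to 5.34 in aged animals lay above the 5.16 to 5.18 in young animals. Of the gate-forming alpha subunits, Psma5, Psma6 and Psma7 each differed by 0.13, with SEs of 0.09, 0.10 and 0.13, and all 3 overlapped between the groups. Psma3 was the alpha subunit below 0, at -0.03 ± 0.07. The remaining core genes, Psma1, Psma2, Psma4 and Psmb1, differed by 0.01 to 0.07.

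**Figure D2:**
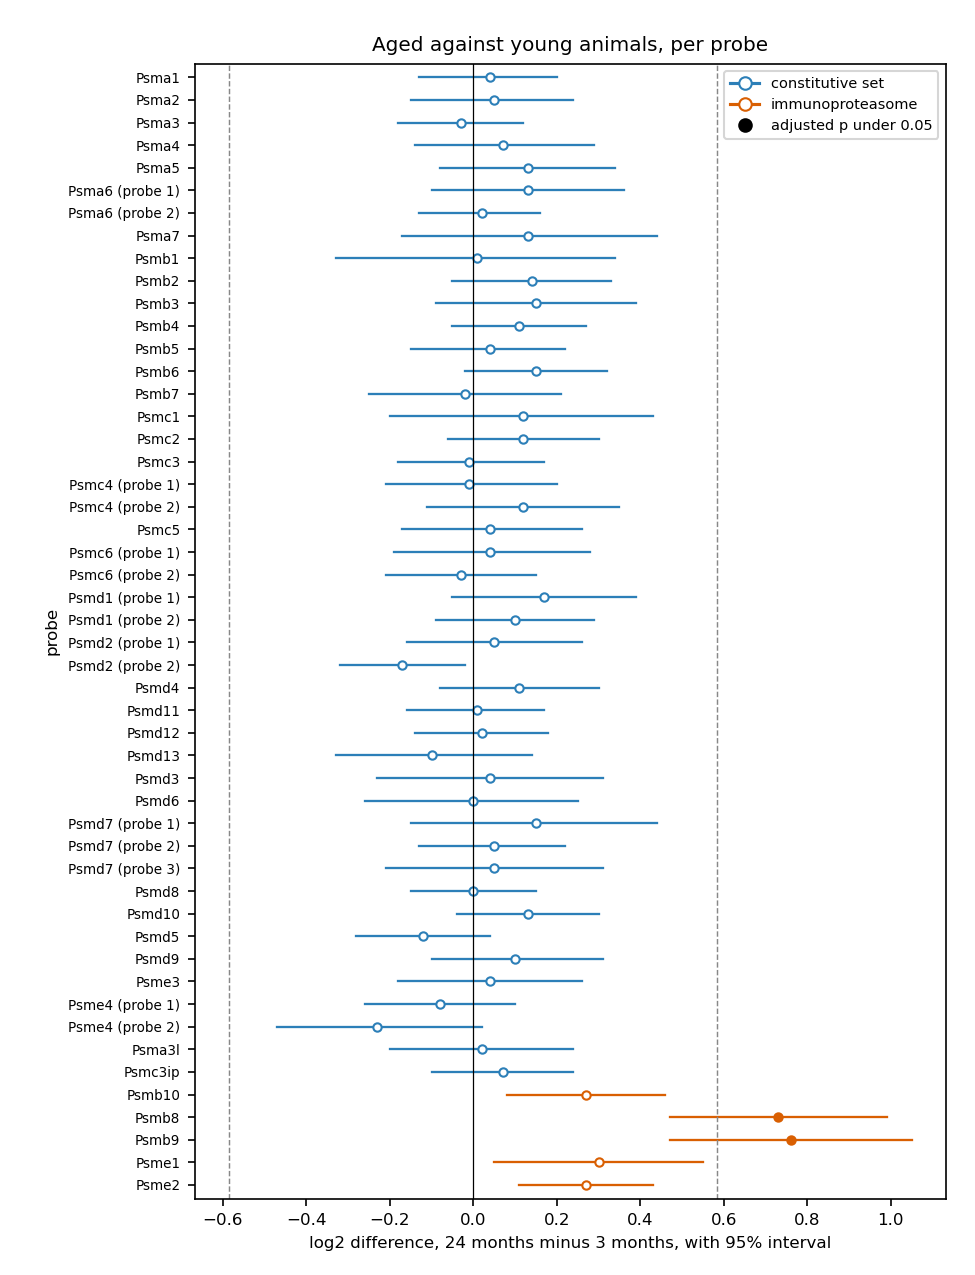
Difference of aged from young animals for each of the 45 member probes and the 5 immunoproteasome and activator probes: log2 difference (horizontal axis) with its 95% interval from limma, filled points for an adjusted p under 0.05, and dashed lines at 1.5-fold (0.58 log2 units) either way. No interval of the constitutive set reaches a dashed line, and Psmb8 and Psmb9 are the only filled points.

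In the regulatory particle the median difference was 0.04 over 16 genes, 13 of them above 0, and 0 passed. By position it was 0.08 over the 6 ATPases, 0.11 over the other base subunits Psmd1, Psmd2 and Psmd4, and 0.01 over 7 lid subunits. Psmd1, a scaffold of the base, had the highest difference of the set. Its level was 6.09, 6.14 and 6.25 in aged animals, against 5.88, 5.98 and 6.11 in young animals. The groups overlapped only by aged replicate 1 and young replicate 3, and the difference was 0.17 ± 0.10 (adjusted p = 0.44, limma). Psmd4, a receptor for ubiquitin chains, had 4.51, 4.48 and 4.62 in aged animals, against 4.43, 4.41 and 4.43 in young animals, without overlap (0.11 ± 0.08). Psmd13, a lid subunit, lay at -0.10 ± 0.10, and the lid subunits Psmd6 and Psmd8 and the ATPase Psmc3 within 0.01 of 0.

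The probes of Psmd2, the other scaffold of the base, had differences of unlike sign. The brighter one, A_43_P15715 at chr11:82535802-82535861, had 5.93, 5.89 and 6.13 in aged animals, against 5.92, 5.89 and 5.99 in young animals, a difference of 0.05 ± 0.09. The other, A_44_P234636, spans chr11:82537394-82538679, upstream of it on the same minus strand. It had 3.35, 3.38 and 3.33 in aged animals, against 3.47, 3.56 and 3.54 in young animals. It was the 1 member with an unadjusted p under 0.05 (-0.17 ± 0.07, adjusted p = 0.28, limma), and its groups did not overlap. The gap between both probes was 2.58, 2.51 and 2.80 in aged animals, against 2.45, 2.33 and 2.45 in young animals (two-sided exact permutation p = 0.1, the smallest that 3 against 3 allows, adjusted p = 0.4 over 8 such probe pairs). Psmc4, an ATPase, also had probes of unlike sign, at 0.12 ± 0.10 and -0.01 ± 0.09, with gaps of 0.39, 0.50 and 0.39 in aged animals, against 0.37, 0.27 and 0.26 in young animals (exact permutation p = 0.1, adjusted p = 0.4). So did Psmc6, another ATPase, at 0.04 ± 0.10 and -0.03 ± 0.08, both less than the SE. Over all 8 pairs of probes of 1 gene, the aged minus young differences differed by 0.00 to 0.22 log2 units.

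The chaperones that assemble the regulatory base lay on both sides of 0. Psmd5 had 0.38, 0.44 and 0.53 in aged animals, against 0.65, 0.53 and 0.54 in young animals, the lowest difference among the brightest probes of the member genes (-0.12 ± 0.07, adjusted p = 0.45, limma). Aged replicate 3 and young replicate 2 were equal to 2 decimals, so the ranges only just parted. Psmd10, also known as gankyrin, differed by 0.13 ± 0.08 and Psmd9 by 0.10 ± 0.09. Psme3, the activator of nuclear proteasomes, differed by 0.04 ± 0.10. Psme4, an activator known for the degradation of acetylated histones, had 2 probes at -0.08 ± 0.08 and -0.23 ± 0.11, the second of which had -1.79, -1.82 and -1.96 in aged animals, against -1.67, -1.49 and -1.71 in young animals (adjusted p = 0.36, limma). Psma3l and Psmc3ip differed by 0.02 ± 0.10 and 0.07 ± 0.07. The Psma3l probe is placed at chr10:64690225-64690284 on rn3 and the Psma3 probe on chromosome 6, so which locus the Psma3l value measures was not settled.

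In the earlier and later steps of age no member passed either. Between middle-aged and young animals 0 of 45 members passed (0.174% of all probes passed, 0.134% higher and 0.0403% lower in middle-aged animals), and 0 had an unadjusted p under 0.05 (6.28% of all probes). The median difference was 0.04, with 36 members above 0 (52.5% of all probes), and the widest bound was 0.55. Not every slide showed this lean. Within slide 1, with 1 middle-aged and 3 young animals, the member median was 0 and 20 members lay above 0. Within slide 3, with 1 animal of each age, it was 0.02 and 27 members lay above 0. Psmb6 had the smallest p of the members: it was 3.49, 3.49 and 3.52 in middle-aged animals, all above the 3.25 to 3.42 of young animals (0.16 ± 0.07, adjusted p = 0.84, limma). Psmd12, a lid subunit, had 4.65, 4.72 and 4.78 in middle-aged animals, against 4.51, 4.61 and 4.65 in young animals (0.13 ± 0.07, adjusted p = 0.90, limma), the nearest values being equal to 2 decimals. These were the 2 members whose middle-aged range lay above the young one (6.32% of all probes), and 0 lay below (4.9%).

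Between aged and middle-aged animals 0 of 45 members passed (0.00336% of all probes, which is 1 probe), and 0 had an unadjusted p under 0.05 (10.5% of all probes). The median difference was 0.01, with 24 members above 0 (53.9% of all probes). The slides differed in sign. Within slide 2, with 2 animals of each of these ages, the member median was -0.06 and 10 members lay above 0. Within slide 3, with 1 animal of each, it was 0.05 and 28 members lay above 0. The aged range lay above the middle-aged one for 2 members (9.78% of all probes), Psmb4 and Psmc3ip, and below it for 3 (7.04%), a Psmd2 probe, Psmd5 and Psmd12. Psmd12 had 4.62, 4.58 and 4.64 in aged animals, below the 4.65 to 4.78 of middle-aged animals (-0.10 ± 0.07), so that its middle-aged animals were the highest of the 3 ages. Psmd5 was lower in aged animals than in the 0.57 to 0.61 of middle-aged ones (-0.14 ± 0.07, adjusted p = 0.52, limma), and Psmb4 was above the 5.08 to 5.24 of middle-aged animals by 0.12 ± 0.07, the last digits of aged replicate 1 and middle-aged replicate 3 being equal. The widest bounds were 0.53, and for both steps 45 of 45 intervals lay within 1.5-fold (81.7% of all probes for the earlier step and 77.3% for the later). The moderated F test over the 3 ages, which asks whether any age differs, called 0 members, against 1.02% of all probes.

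Middle-aged replicate 2 stood apart for a few members, named here after their values were seen. Its Psmb1 level was 3.03, against 3.41 to 3.65 in the other 8 animals, and its Psma7 level 4.19, against 4.53 to 4.82. In the opposite direction its Psmc1 level was 6.54, against 5.89 to 6.20, and its Psmb3 level 5.40, against 4.93 to 5.29. Without this animal the difference of middle-aged from young animals was 0.00 in place of -0.18 for Psmb1, 0.06 in place of -0.09 for Psma7, 0.08 in place of 0.24 for Psmc1 and 0.06 in place of 0.16 for Psmb3. The difference of aged from middle-aged animals for Psma7 was 0.07 in place of 0.23. The largest excursions at midlife thus came from 1 animal. It was measured on 1 array, so animal and array cannot be told apart. Psmd3, a lid subunit, was low in young replicate 1 (1.67, against 2.03 and 2.05 in the other young animals).

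Core and regulatory particle were compared as a description, per animal, by the median over their genes of the level relative to the young mean. For the core it was -0.09, 0.01 and 0.07 in young animals, 0.03, 0.08 and 0.07 in middle-aged animals, and 0.05, 0.04 and 0.17 in aged animals. For the regulatory particle it was -0.05, 0.04 and 0.05 in young animals, -0.03, 0.08 and 0.12 in middle-aged animals, and 0.01, 0.03 and 0.14 in aged animals. Both medians were highest in aged replicate 3 and lowest in young replicate 1. Aged replicate 3 had the highest level of its group for 36 of 45 members and young replicate 1 the lowest of its group for 30. The median over all 29805 probes was 0.05 and -0.02 in those animals. The core median minus the regulatory median lay between -0.05 and 0.06 in all 9 animals. It was -0.04, -0.03 and 0.02 in young, 0.06, -0.01 and -0.05 in middle-aged, and 0.04, 0.02 and 0.03 in aged animals. A second measure took the median over genes of the difference between 2 groups. By it, core minus regulatory particle was 0.05 for aged against young and 0.04 for aged against middle-aged animals. For middle-aged against young animals it was -0.02, while the values per animal had both signs within each of these groups.

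**Figure D3:**
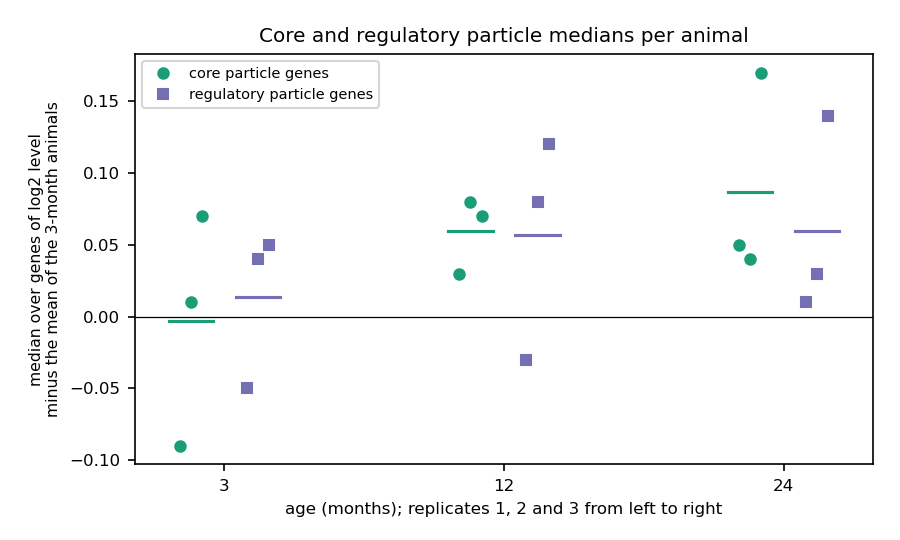
Median over the 14 core genes (circles) and the 16 regulatory particle genes (squares) of the log2 level minus the mean of the 3-month animals (vertical axis), per animal by age in months, with the group means as bars. Aged replicate 3 has the highest pair (0.17 and 0.14) and young replicate 1 the lowest (-0.09 and -0.05).

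Of the immunoproteasome genes, Psmb8 and Psmb9 rose in aged against young animals. Psmb8 had -0.21, -0.60 and -0.47 in aged animals, against -1.02, -1.30 and -1.15 in young animals, and rose by 0.73 ± 0.11 log2 units (adjusted p = 0.017, limma). Psmb9 had 0.31, -0.13 and -0.06 in aged animals, against -0.63, -0.83 and -0.70 in young animals, and rose by 0.76 ± 0.13 (adjusted p = 0.022, limma). Neither gene's groups overlapped. Psmb10 and the activator subunits Psme1 and Psme2, which also respond to interferon, lay higher by 0.27 ± 0.08, 0.30 ± 0.11 and 0.27 ± 0.07 and did not pass (adjusted p = 0.19, 0.25 and 0.11, limma), although all aged animals were above all young ones for each. Over 21 other settings the differences were 0.61 to 0.81 for Psmb8 and 0.63 to 0.85 for Psmb9. Psmb8 missed the threshold without young replicate 2 or 3 (adjusted p = 0.0675 and 0.0669, limma) and with only both groups fitted (0.0582). Psmb9 missed it without young replicate 1, 2 or 3 (adjusted p = 0.0519, 0.0925 and 0.0788, limma), with only both groups fitted (0.0562) and with no filter on dim probes (0.0588).

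Relative to its constitutive counterpart on the same array, and to the young mean, Psmb8 over Psmb5 was 0.96, 0.56 and 0.55 log2 units in aged animals (0.69 ± 0.23, SD), against 0.20, -0.16 and -0.04 in young animals (0 ± 0.18). Psmb9 over Psmb6 was 0.90, 0.50 and 0.43 in aged animals (0.61 ± 0.25), against 0.19, -0.13 and -0.06 in young animals (0 ± 0.17). Psmb10 over Psmb7 was 0.40, 0.26 and 0.22 in aged animals (0.29 ± 0.10), against -0.06, -0.13 and 0.19 in young animals (0 ± 0.17). The groups did not overlap for any of the 3 ratios, each with a two-sided exact permutation p = 0.1, the smallest that 3 against 3 animals allows (adjusted p = 0.1 over the 3 ratios). In middle-aged animals the ratios averaged 0.30 ± 0.09 for Psmb8 over Psmb5, 0.17 ± 0.15 for Psmb9 over Psmb6 and 0.04 ± 0.17 for Psmb10 over Psmb7. Of the microglial markers, 7 of 9 rose in aged against young animals, all 9 were well above background, and the list's median per animal relative to the young mean spanned 0.80 to 1.07 in aged animals, against -0.09 to 0.10 in young animals. Values of other marker lists are given beside them. The oligodendrocyte median (4 genes) was -0.50 to -0.30 in aged animals, against -0.06 to 0.06 in young animals; by the brightest probes 0 of 4 passed, and a second Mobp probe fell by 0.43 log2 units (adjusted p = 0.026, limma). The red cell median (2 genes) was 0.37 to 1.19 in aged animals, against -0.28 to 0.44 in young animals, with 0 passing. The catecholamine neuron median (6 genes) was -0.57 to -0.06 in aged animals, against -0.10 to 0.06 in young animals. For general neuron markers (4 genes) it was -0.25 to -0.01, against -0.09 to 0.15. For endothelium (4 genes) it was -0.19 to 0.02, against -0.13 to 0.09. In each of these 3 lists 0 passed. The astrocyte marker Gfap differed by 0.92 ± 0.23 (adjusted p = 0.10, limma), while the astrocyte median (4 genes) differed by 0.04. The part of these cell types in the Psmb8 and Psmb9 result was not tested.

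**Figure D4:**
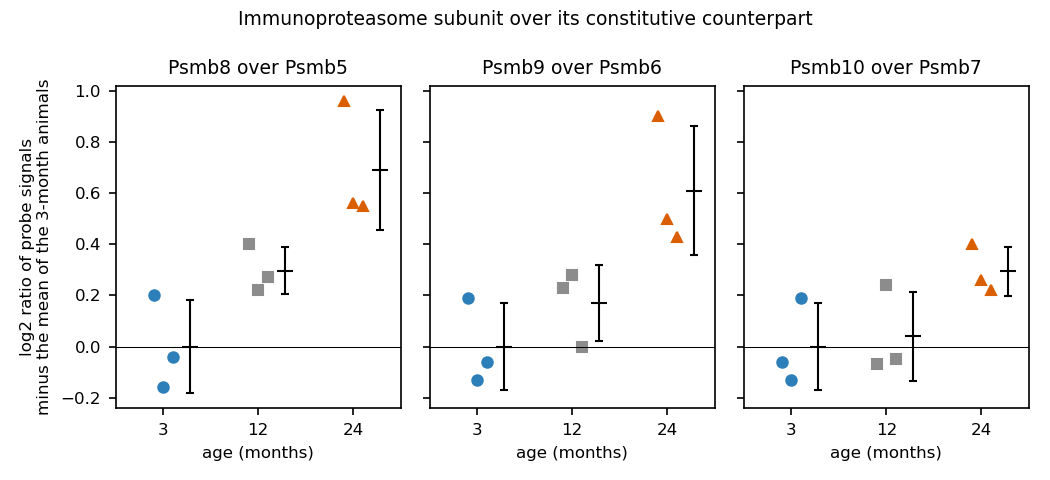
Log2 ratio of the probe signal of each immunoproteasome subunit to that of its constitutive counterpart, minus the mean of the 3-month animals (vertical axis), by age in months; 1 point per animal, with the mean and SD of each group beside it. For Psmb8 over Psmb5 the aged animals lie at 0.55 to 0.96 and the young animals at -0.16 to 0.20.

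Of 36 other genes of the pathway (ubiquitin genes, shuttle receptors, proteasome-bound enzymes, maturation factors and transcriptional regulators), 23 were on the array by name and 22 were tested. In aged against young animals 0 passed in either direction, the median difference was -0.01 and 10 lay above 0. Nfe2l2, a transcription factor of the antioxidant response that can raise proteasome gene transcription, had 1.26, 1.19 and 1.18 in aged animals, against 0.87, 0.86 and 1.08 in young animals. The groups did not overlap, and the difference of 0.27 ± 0.08 did not pass (adjusted p = 0.17, limma). Nfe2l1, the factor that restores proteasome genes when the protease is inhibited, differed by -0.06 ± 0.09 by its brighter probe and by 0.19 ± 0.14 by another. Adrm1, a ubiquitin receptor of the base, differed by 0.10 ± 0.14, Usp14, a deubiquitinase bound to the base, by -0.02 ± 0.08, and Vcp, the segregase that hands over substrates, by -0.09 ± 0.06.

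Promoter windows of RefSeq on build GRCr8, from 250 bases before to 50 after the start, were found for 32 of the 35 member genes (Psma3l and Psmc3ip left out). The motif TGACNNNGC, the core of the element that Nfe2l1 and Nfe2l2 bind, was searched on both strands and stood in 8 of these 32 windows (25.0%), against 12.2% of all 27457 windows. They were the core genes Psma3, Psmb2, Psmb5 and Psmb6 (4 of 13), the regulatory particle genes Psmd1 and Psmd3 (2 of 14), and Psmd9 and Psme4. None of the 5 immunoproteasome and activator windows held it. The motif CCAAT, also on both strands, stood in 17 of 32 windows (53.1%), against 37.7% of all windows, with 9 of 13 in core genes and 5 of 14 in regulatory particle genes. The member windows had a median of 20 CpG sites, against 7 in all windows, and a median GC content of 56.0%, against 52.3%. The windows of both active subunits with the motif are shown, 5′ to 3′ on the gene's strand, with TGACNNNGC in capitals.
Psmb5: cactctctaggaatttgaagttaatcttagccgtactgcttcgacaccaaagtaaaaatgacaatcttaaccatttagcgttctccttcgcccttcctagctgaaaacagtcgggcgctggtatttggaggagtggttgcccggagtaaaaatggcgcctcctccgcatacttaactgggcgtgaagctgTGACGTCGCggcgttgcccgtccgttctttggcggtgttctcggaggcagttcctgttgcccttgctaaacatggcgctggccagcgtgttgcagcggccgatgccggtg
Psmb6: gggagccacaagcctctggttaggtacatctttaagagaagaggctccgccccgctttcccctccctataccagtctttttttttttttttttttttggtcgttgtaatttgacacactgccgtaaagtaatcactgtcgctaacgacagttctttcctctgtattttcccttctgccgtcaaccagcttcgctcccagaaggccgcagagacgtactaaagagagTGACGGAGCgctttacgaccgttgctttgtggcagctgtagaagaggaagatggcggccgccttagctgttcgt
The Psmb5 window is chr15:32047330-32047629 on the minus strand and the Psmb6 window chr10:55737638-55737937 on the plus strand, with the motif at positions -60 and -24 relative to the start. Both genes differed by less than 0.2 log2 units between any 2 ages. A match of letters is a description and shows no binding.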

How the data were processed

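The deposited array files hold intensity on a linear scale; the processed signal of Agilent Feature Extraction 9.5.1.1 was used. Per the file headers, it had been detrended after background subtraction and not scaled between arrays. Other deposited columns are flags per spot (0 or 1) for outliers, saturation and signal well above background. The series matrix that the authors deposited holds a score with mean 0 and SD 1 per array over 36424 features, which correlates at 1 with the log2 signal; its log base and feature choice stay unknown, and it served as an alternative.

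Each array had 43379 non-control spots. Outlier spots were set missing, log2 signals were averaged per probe, the array's 75th percentile was subtracted, and both arrays of replicate 3 were averaged. A probe was kept if at least 1 group had it well above background on all its arrays. The 29805 kept probes were analysed across the 9 animals by limma 3.58.1 (R 4.3.3) (prior degrees of freedom 2.69), with Benjamini-Hochberg adjustment over all probes; ± gives the limma SE unless SD is named, n = 3 per group, and "rose" or "fell" marks an adjusted p under 0.05. The model was tested on simulated data. The number of arrays limits the precision. The brightest kept probe stood for a gene. Genes were named by rule: the 8 highest and 8 lowest differences of aged from young animals, the 4 smallest p in each other comparison, the catalytic subunits and Psme genes, a further probe that differed in direction by more than the SE, the 5 immunoproteasome and activator genes, and Pomp (no probe by that name), Adrm1, Usp14, Nfe2l1, Nfe2l2 and Vcp; any other gene was named after its values were seen. The members, lists and tests were chosen with earlier results of these data known. Probe positions come from the array files (rn3); promoter sequences are RefSeq's.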

Additional observations from a re-analysis of the deposited data

How the results depend on the processing

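Under every alternative, 0 of the member probes passed in any comparison. Over single member genes 1332 values under other settings and 999 with an animal left out gave 0 calls; the sign changed in 79 and 71 of them, the lowest adjusted p values were 0.24 and 0.35, and the largest move was 0.20. Intervals within 1.5-fold numbered 43 to 45 of 45 (37 of 37 with one probe per gene). The count of all probes called for aged against young animals was 552, and 320 with normexp background correction, 318 with no filter on dim probes, 320 with slide as a block, and 280 to 544 with an animal left out (299 and 280 without young replicates 2 and 3; 313, 330 and 357 without aged replicates 1, 2 and 3). For middle-aged against young animals it was 52, and 20 with normexp, 34 from the series matrix, 5 with no filter, 3 with only both groups fitted, 81 with 12 arrays, 31 with slide as a block, and 2 to 18 with an animal left out. For aged against middle-aged animals it was 1, and 0 with scaling to the array median, quantile normalization, the series matrix or no filter, 4 with normexp, 3 with probes well above background on every array or one probe per gene, 28 with 12 arrays, and 0 to 3 with an animal left out. The F test called 303, and 152 with no filter, 175 with slide as a block, and 90 to 265 with an animal left out. With the replicate block the counts were 1 for middle-aged against young animals, 0 for aged against middle-aged animals and 164 for the F test. Same-numbered animals correlated at -0.41 to 0.38, and animals of unlike number at -0.40 to 0.32. These values gave no sign that the numbers pair the animals, but with 3 animals per group they cannot exclude it. The member median for aged against young was 0.04, and -0.02 from the series matrix; for aged against middle-aged it was 0.01, and -0.05 from the series matrix. By the medians of gene differences, core minus regulatory particle was 0.05 for aged against young and 0.01 after quantile normalization. For middle-aged against young it was -0.02, and -0.06 to 0.02 with an animal left out. The cause of these moves was not tested. Slide is partly confounded with age.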

Other observations

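Besides the members, 14 probes had a description on the array that names the proteasome but no member name; they were found after the data were seen, and 3 of them were too dim to test. Among the other 11, 0 passed in aged against young animals. The probe XM_222590, described as similar to an activator subunit, had 2.60, 2.58 and 2.71 in aged animals, against 2.29, 2.33 and 2.53 in young animals (0.25 ± 0.10, adjusted p = 0.28, limma). LOC679014, described as similar to a small subunit of the regulatory lid, differed by 0.11 ± 0.09, and LOC682071, described as similar to a proteasome inhibitor, by -0.01 ± 0.06. On slide 3, which held replicate 3 of each group, the core median differed by 0.11 and the regulatory median by 0.08 for aged against young, where all probes differed by 0.04. The pair of arrays of aged replicate 3 differed by 0.38 log2 units for a Psmd7 probe, the largest such gap among the members.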
